A study of Homo sapiens with 6 samples.

Results

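The VEGF family was examined in RNA sequencing data of the established line SW872, derived from a human liposarcoma. It was taken as 9 genes, chosen by symbol for their place in the pathway that Apatinib is meant to block, out of 57773 genes counted. The members are the ligands VEGFA, VEGFB, VEGFC and PGF, the receptors FLT1, KDR and FLT4, and the co-receptors NRP1 and NRP2. The Apatinib group held 3 replicates exposed to 18 μM Apatinib for 24 h, and the control group held 3 replicates without Apatinib. Total counts were 18081919, 17275850 and 17352210 in Apatinib replicates 1, 2 and 3, and 17043314, 18139437 and 22067558 in control replicates 1, 2 and 3.

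VEGF ligands are secreted proteins that bind receptor tyrosine kinases on the cell surface. KDR carries most of the growth signal of VEGFA in blood vessel endothelium, FLT1 binds VEGFA, VEGFB and PGF and can act as a decoy, and FLT4 is the VEGFC receptor of lymphatic endothelium. The neuropilins NRP1 and NRP2 have no kinase of their own and present ligands to these receptors. Apatinib is a small-molecule inhibitor directed mainly at the kinase of KDR, and the comparison asks how the transcripts of its target pathway stood in tumor cells after treatment.

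Of the 9 members, 7 had enough counts for testing, and KDR and FLT4 did not. Only NRP2 met the criteria for a differentially expressed gene (DEG), which were a fold change of more than 0.5 on the log2 scale, in either direction, at an FDR below 0.05 in edgeR's quasi-likelihood test. That is 1 of 7, beside 11.5% of the 16290 genes tested (5.97% higher and 5.48% lower with Apatinib). The median log2 fold change was 0.44 over the 7 tested members and 0.0028 over all tested genes. These medians come from the fit on all 6 libraries, and the values of single members moved when 1 library was left out. The replicates of the groups did not overlap in CPM (counts scaled to the total of the tested genes, with TMM factors) for 4 of the 7, namely VEGFA, VEGFC, FLT1 and NRP2, beside 33.2% of all tested genes. With 7 genes these shares are a description of the list only.

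No pair of libraries was as close as control replicates 1 and 2. Their mean chi-square per gene was 2.27, where sampling noise alone gives about 1, whereas other pairs within a group ranged from 18.2 to 44.5. Pairs across the groups ranged from 26.5, for replicate 3 of each group, to 78.4, so some were closer than pairs within a group. Control replicates 1 and 2 differed by more than sampling noise and were kept as separate samples. That does not show that they came from separate cultures. The authors describe the replicates of each group as biological, and this was not tested. If the 2 are repeats of 1 culture, the control SDs and n = 3 in the text overstate the replication. With both summed as 1 sample, the number of DEGs was 292 in place of 1866, and no member was called. Leaving out control replicate 1 gave 275 DEGs, leaving out control replicate 2 gave 300 and leaving out Apatinib replicate 1 gave 795. Of the DEGs, 973 were higher and 893 lower with Apatinib, but the split was not stable. The part that was higher was 70.9% with summed controls, 69.8% and 71.7% without control replicate 1 or 2, 65.8% without Apatinib replicate 1 and 42.5% without control replicate 3, and by limma on FPKM 69.8% and 71.4%. The p values measure the spread between these samples.

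**Figure D1:**
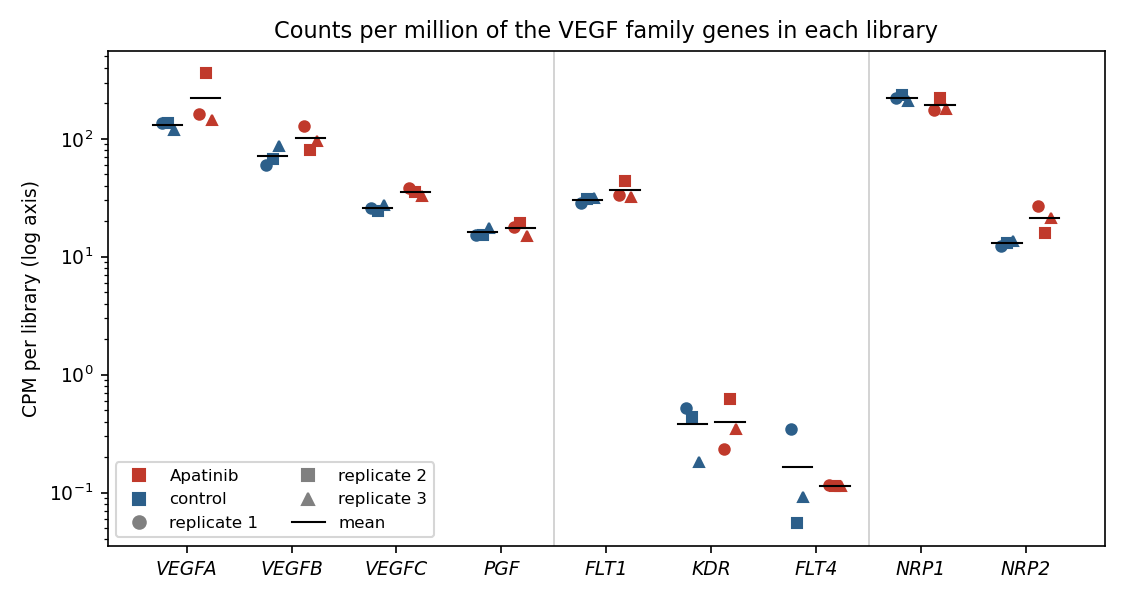
CPM (log axis) of the 9 genes in each library, with controls in blue, Apatinib in red, a marker for each replicate and a line at the group mean. KDR and FLT4 lie under 1 CPM in all 6 libraries, and VEGFA has 1 high point, 360 CPM in Apatinib replicate 2.

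VEGFA (ENSG00000112715), the main driver of blood vessel growth, had 161, 360 and 145 CPM in Apatinib replicates 1, 2 and 3. In control replicates 1, 2 and 3 it had 136, 135 and 119 CPM. All Apatinib values lay above all control values, but replicate 2 stood far above the rest. The group means were 222 ± 119 and 130 ± 9.31 CPM (SD, n = 3). The log2 fold change was 0.77 (SE 0.28, 95% interval 0.16 to 1.38) and the edgeR FDR was 0.0874, so the difference was not called. Without Apatinib replicate 2 the log2 fold change was 0.24 (edgeR FDR 0.177), and without Apatinib replicate 3 it was 1.00 (edgeR FDR 0.0404), which met the criteria. VEGFA was also called with the replicate number as a block (0.64, edgeR FDR 0.0086) and with no filter (0.79, edgeR FDR 6.1e-06). The fit with no filter took in 32596 genes in place of 16290. No other alternative called VEGFA, and DESeq2 gave it a log2 fold change of 0.77 with an FDR of 0.236.

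VEGFB (ENSG00000173511), a ligand of FLT1 and NRP1, had 129, 80.8 and 95.1 CPM in the Apatinib replicates. The control values were 60.1, 67.2 and 86.6 CPM, so that control replicate 3 exceeded Apatinib replicate 2 and the groups overlapped. VEGFB had a log2 fold change of 0.51 (SE 0.19) with an edgeR FDR of 0.0891, which missed the threshold. VEGFB passed without Apatinib replicate 2 (log2 fold change 0.66, edgeR FDR 0.0461) and without control replicate 3 (0.68, edgeR FDR 0.0256). It was lower without Apatinib replicate 1 (0.30, edgeR FDR 0.295) and without control replicate 1 (0.40, edgeR FDR 0.317). Its longest transcript has a GC content of 66.7%, above that of 98.3% of tested genes. Across genes, log2 fold change and GC content were related in these libraries (Spearman correlation 0.44 over 15819 genes, which are not independent replicates). After a correction for GC content, chosen after seeing the data, the log2 fold change of VEGFB was 0.23 (edgeR FDR 0.252).

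VEGFC (ENSG00000150630), the ligand of FLT4 and a growth factor for lymphatic vessels, was tight within groups. The Apatinib replicates had 38.0, 35.3 and 32.9 CPM and the controls 26.1, 24.4 and 27.5 CPM. Every Apatinib value exceeded every control value. For VEGFC the log2 fold change was 0.44 (SE 0.13, 95% interval 0.17 to 0.72) with an edgeR FDR of 0.0424. VEGFC therefore passed the FDR limit, as 12.9% of tested genes did on that limit alone, and missed the limit on fold change. Its edgeR FDR was 0.113 without Apatinib replicate 1, 0.0523 without Apatinib replicate 2 and 0.172 or 0.210 when control replicate 1 or 2 was left out. Over all alternatives the FDR ran from 0.0262 to 0.210, and the log2 fold change from 0.35 to 0.50.

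PGF (ENSG00000119630), a placental growth factor that binds FLT1, ranged from 15.1 to 19.4 CPM with Apatinib and from 15.3 to 17.6 CPM in controls. The groups overlapped, and the log2 fold change of 0.11 had a 95% interval of −0.21 to 0.44 (edgeR FDR 0.647). With each library left out the log2 fold change of PGF ran from 0.037 to 0.21, and after the GC correction it was −0.020. Among the 4 ligands no gene was called by edgeR, 3 had an unadjusted p under 0.05 (VEGFA, VEGFB and VEGFC) beside 30.6% of all tested genes, and DESeq2 called VEGFB alone. Another ligand gene, VEGFD, listed under its older symbol FIGF, had between 0 and 5 counts per library and was not tested.

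**Figure D2:**
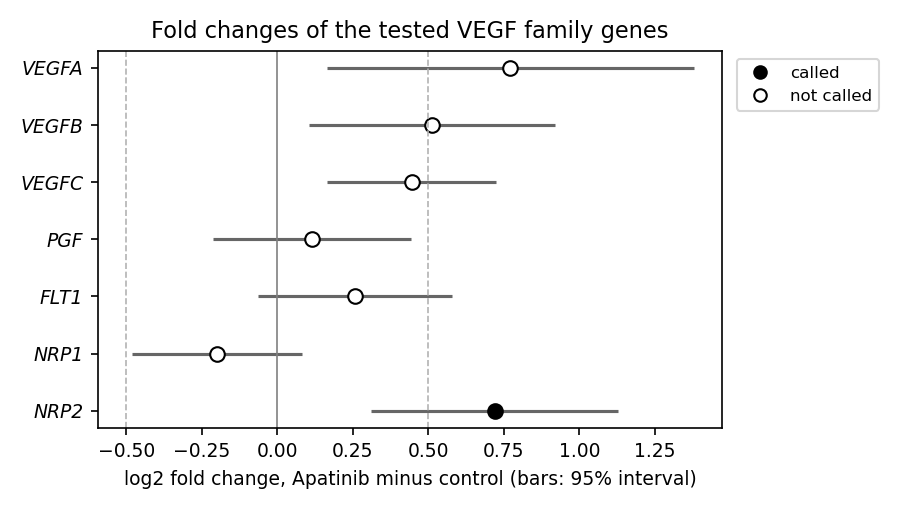
Log2 fold change of the 7 tested genes, Apatinib minus control, with 95% intervals from edgeR, dashed lines at the fold change limit of 0.5 and a filled point where the gene was called. NRP2 at 0.72 is the filled point, and the intervals of PGF, FLT1 and NRP1 include 0.

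Ligand levels can be set beside each other only per transcript length, in FPKM. In controls the mean FPKM was 36.5 ± 6.0 for VEGFB, 25.4 ± 4.12 for VEGFA, 8.61 ± 0.47 for VEGFC and 6.25 ± 0.25 for PGF (SD, n = 3), and the replicate ranges of these genes did not overlap. With Apatinib the FPKM was 52.7 ± 10.3 for VEGFB and 52.1 ± 32.0 for VEGFA, whose ranges overlapped, then 12.0 ± 0.62 for VEGFC and 7.17 ± 1.32 for PGF. The summed ligand FPKM was 116, 154 and 102 in the Apatinib replicates and 73.2, 77.4 and 79.6 in the controls.

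As a share of that sum, VEGFA made up 28.0%, 57.6% and 34.1% in the Apatinib replicates and 35.5%, 37.7% and 26.4% in the controls. Only Apatinib replicate 2 lay outside the control range on the high side. The mean share of VEGFA was 6.73 percentage points higher with Apatinib (exact two-sided permutation p = 0.7), and without Apatinib replicate 2 the difference was −2.11. PGF made up 5.90%, 5.59% and 5.96% with Apatinib and 8.53%, 7.76% and 8.18% in controls. These shares did not overlap, and the difference of −2.34 percentage points reached the smallest p that 3 against 3 samples allow (exact two-sided permutation p = 0.1, adjusted over the 4 ligands 0.4). The differences in share for VEGFB and VEGFC were −3.09 and −1.30 percentage points, with exact permutation p values of 0.9 and 0.5. For VEGFC the difference was −0.35 without Apatinib replicate 2 and −0.80 without control replicate 1. Taken from CPM, the differences were 2.98 for VEGFA, −0.30 for VEGFB and −0.84 for VEGFC. For VEGFB the sign turned without Apatinib replicate 2 (4.68) and without control replicate 3 (0.40).

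**Figure D3:**
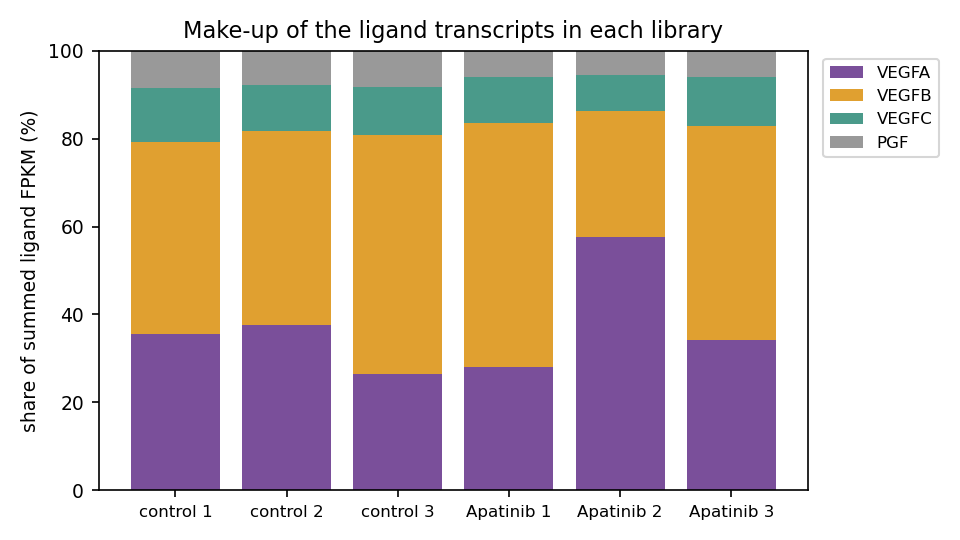
Share of each ligand in the summed FPKM of the 4 ligands (%), 1 bar per library. VEGFA takes 57.6% in Apatinib replicate 2 and between 26.4% and 37.7% in the other libraries, and PGF is the smallest share in each bar.

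FLT1 (ENSG00000102755) was the only receptor tyrosine kinase of the family with enough counts for testing. It had 33.0, 43.9 and 32.3 CPM in the Apatinib replicates and 28.8, 31.1 and 31.5 CPM in the controls. The groups did not overlap in CPM, although the gap between Apatinib replicate 3 and control replicate 3 was small. In FPKM they did overlap, at 4.80, 6.97 and 5.57 with Apatinib against 5.81, 4.50 and 5.20 in controls. FLT1 had a log2 fold change of 0.26 (SE 0.15, 95% interval −0.06 to 0.58), and with an edgeR FDR of 0.260 no difference was called. Leaving out Apatinib replicate 2 gave 0.11 (edgeR FDR 0.581). Counts per gene do not separate the full-length receptor from its soluble form.

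KDR (ENSG00000128052), the main target of Apatinib, had 4, 11 and 6 counts in the Apatinib replicates and 9, 8 and 4 counts in the controls. The sum was 21 in each group, with an exact Poisson 95% interval of 13.0 to 32.1. After scaling for depth the ratio of Apatinib to control was 1.09, with an exact 95% interval of 0.569 to 2.11. These intervals cover counting error only. A change within those bounds was not detectable at this depth.

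FLT4 (ENSG00000037280) had 2 counts in each Apatinib replicate and 6, 1 and 2 counts in the controls. The sums were 6 and 9, and the ratio of Apatinib to control was 0.730 (exact 95% interval 0.214 to 2.30). Below detection was defined as at most 3 counts in every library. By that definition none of the 3 receptors was below detection in all libraries, but FLT4 was at or under 3 counts in 5 of 6 and exceeded it only in control replicate 1. KDR exceeded 3 counts in all 6 libraries, with at most 11. Both were removed by the filter on low counts and have no fold change or FDR from the filtered counts.

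Per transcript length, FLT1 made up between 97.5% and 99.4% of the summed FPKM of the 3 receptors in every library. The FPKM of FLT1 was 84.9 to 247 times that of KDR. In controls the mean FPKM was 5.17 ± 0.66 for FLT1, 0.0463 ± 0.0227 for KDR and 0.0351 ± 0.0443 for FLT4 (SD, n = 3). The ranges of KDR and FLT4 overlapped in controls. The other named targets of Apatinib were KIT, RET and SRC. KIT had 1 count in control replicate 1 and 0 in the other libraries, and RET had between 0 and 7 counts, so neither was tested. SRC, a kinase of the cell membrane, was not called, at 0.30 on the log2 scale (edgeR FDR 0.179).

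The promoters of FLT1 and KDR are shown as those of the tested receptor and of the main target of Apatinib, and that of NRP2 because it was the called member. The set of RefSeq promoters used here held entries for 6 of the 9 members (VEGFB, VEGFC, PGF, FLT1, KDR and NRP2). VEGFA, FLT4 and NRP1 had no entry in that set, which says nothing about RefSeq as a whole. The 250 bases before each gene's start are given 5′ to 3′ on the strand of the gene, on build GRCh38.p14. FLT1 lies on the minus strand at chr13:28495129-28495378, KDR on the minus strand at chr4:55125596-55125845 and NRP2 on the plus strand at chr2:205682251-205682500. Capitals mark matches, on either strand, to the GC box GGGCGG, the TATA box TATAAA and the cyclic AMP response element TGACGTCA.
FLT1: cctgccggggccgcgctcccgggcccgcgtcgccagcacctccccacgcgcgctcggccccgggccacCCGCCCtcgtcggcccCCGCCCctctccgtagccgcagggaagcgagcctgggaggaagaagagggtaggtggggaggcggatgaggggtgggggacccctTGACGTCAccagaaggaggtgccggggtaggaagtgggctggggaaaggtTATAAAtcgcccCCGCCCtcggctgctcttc
KDR: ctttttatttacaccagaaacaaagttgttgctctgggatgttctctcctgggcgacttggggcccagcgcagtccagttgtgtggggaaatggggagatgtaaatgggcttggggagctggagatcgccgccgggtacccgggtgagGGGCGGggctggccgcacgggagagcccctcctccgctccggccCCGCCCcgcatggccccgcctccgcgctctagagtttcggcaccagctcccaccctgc
NRP2: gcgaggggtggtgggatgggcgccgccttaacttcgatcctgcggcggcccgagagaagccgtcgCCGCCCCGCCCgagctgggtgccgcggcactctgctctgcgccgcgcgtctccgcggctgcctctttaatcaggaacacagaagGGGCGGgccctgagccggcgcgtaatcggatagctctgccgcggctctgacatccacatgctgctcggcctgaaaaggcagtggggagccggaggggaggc
The FLT1 window held 3 GC boxes, 1 TATA box starting 31 bases before the gene and 1 cyclic AMP response element. KDR held 2 GC boxes and NRP2 held 3, of which a pair overlapped by 1 base. A GC box was found in 42.6% of 35116 promoter windows of the same length, a TATA box in 10.7% and the cyclic AMP response element in 1.65%. Searches for the AP-1 site TGANTCA and the hypoxia response core ACGTG gave no match in these 3 windows, beside 6.57% and 18.5% of all windows. A match describes letters in the window and is not a measured binding site.

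NRP1 (ENSG00000099250), a co-receptor for VEGFA, had 176, 223 and 179 CPM with Apatinib and 221, 235 and 208 CPM in controls. Apatinib replicate 2 lay within the control range and the other 2 replicates below it. NRP1 differed by a log2 fold change of −0.20 (SE 0.13, 95% interval −0.48 to 0.08, edgeR FDR 0.319), and it was not called. Leaving out Apatinib replicate 2 gave −0.31 (edgeR FDR 0.0855). NRP1 was the only tested member with a fold change below 0.

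NRP2 (ENSG00000118257), the neuropilin best known for binding VEGFC and class 3 semaphorins, had 26.9, 15.9 and 21.2 CPM in Apatinib replicates 1, 2 and 3. The control replicates had 12.4, 13.0 and 13.6 CPM. All Apatinib values exceeded all control values, with replicate 2 the closest to them. The means were 21.4 ± 5.51 and 13.0 ± 0.60 CPM (SD, n = 3). NRP2 rose by 0.72 on the log2 scale (SE 0.19, 95% interval 0.31 to 1.13, edgeR FDR 0.0310), or 1.65-fold. The authors' FPKM values overlapped, at 6.01, 2.71 and 4.10 with Apatinib against 2.84, 2.62 and 3.10 in controls.

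The NRP2 call depended on single libraries. Its edgeR FDR was 0.0983 when Apatinib replicate 1 was left out and 0.0570 when Apatinib replicate 3 was. Leaving out control replicate 1 gave 0.131 and leaving out control replicate 2 gave 0.118. With controls 1 and 2 summed it was 0.120. The log2 fold change stayed between 0.41 and 0.90 in all 15 alternatives, with FDR values from 0.0012 to 0.254. NRP1 exceeded NRP2 in FPKM in every library, by 4.32, 12.9 and 7.29 times with Apatinib and 13.0, 13.4 and 10.1 times in controls. Over all 9 genes, mean FPKM in controls ran, from high to low, in the order VEGFB, NRP1, VEGFA, VEGFC, PGF, FLT1, NRP2, KDR and FLT4. Among neighbours in that order the replicate ranges overlapped for VEGFB with NRP1 and for KDR with FLT4. With Apatinib VEGFA stood above NRP1 in this order, and neighbours overlapped for VEGFB with VEGFA, VEGFA with NRP1, PGF with FLT1 and FLT1 with NRP2.

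**Figure D4:**
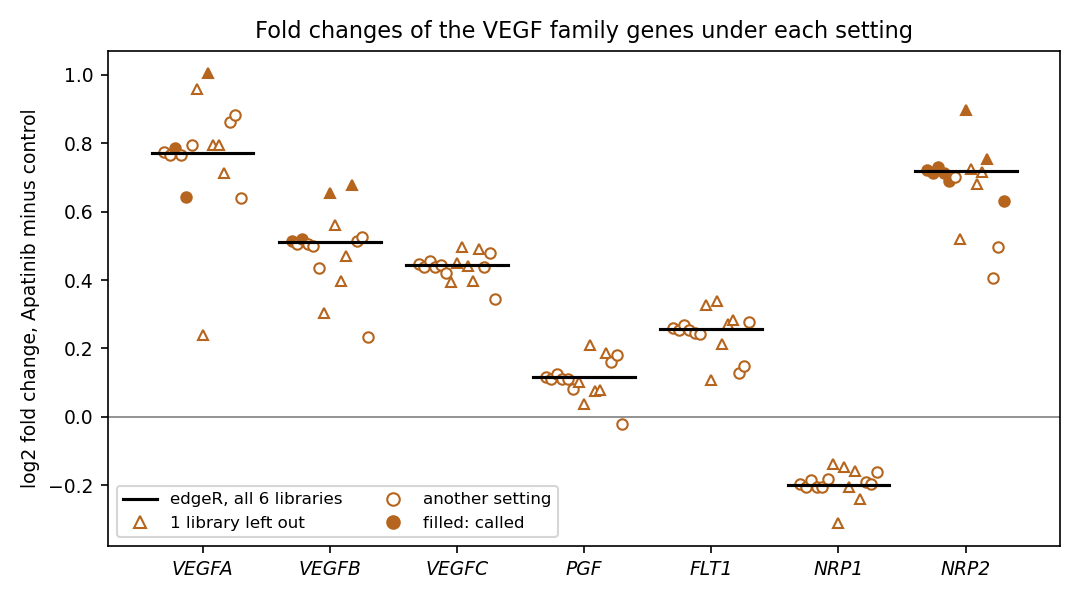
Log2 fold change of the 7 tested genes under each alternative, with a line for edgeR on all 6 libraries, triangles for fits without 1 library and filled markers where the gene was called. VEGFA drops to 0.24 without Apatinib replicate 2, and NRP2 ranges from 0.41 to 0.90 with calls in 8 of 15 alternatives.

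Genes with the pattern closest to NRP2 over the 6 samples were L1CAM, a neural cell adhesion molecule, CREB3L1, a transcription factor of the endoplasmic reticulum, and ACOX3, a peroxisomal oxidase. The Pearson correlation of log2 CPM with NRP2 was 0.995, 0.995 and 0.994. The groups separate on NRP2, so these values follow the group difference as well as the spread within groups. The log2 fold changes were 0.54 for L1CAM (edgeR FDR 0.0326), 0.95 for CREB3L1 (edgeR FDR 0.0118) and 0.27 for ACOX3 (edgeR FDR 0.195).

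In GENCODE 29, exons of VEGFA, NRP1 and NRP2 each overlap an antisense gene, and whether strand was used in counting is not given in the sources used here. The antisense genes had 0 counts at VEGFA and NRP2 in all 6 libraries and 1 count in total at NRP1.

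VEGFC is made as a precursor that is cut by proteases and held in the matrix. Of 8 genes for VEGF-C processing and matrix release, all were tested, 4 rose and 0 fell, with a median log2 fold change of 0.46. Over all tested genes 5.97% rose and 5.48% fell, and the list was chosen with earlier results known. The 4 were HSPG2, the matrix proteoglycan perlecan, at 0.81 (edgeR FDR 0.0053), the convertase PCSK5 at 0.82 (FDR 0.0147), CCBE1, a cofactor of VEGFC cleavage, at 0.65 (FDR 0.0135), and the protease CTSD at 0.68 (FDR 0.0197). HSPG2 had 232, 213 and 181 CPM with Apatinib and 116, 118 and 124 CPM in controls. It was called in all 15 alternatives. The convertase FURIN, at −0.01 on the log2 scale (edgeR FDR 0.970), and the protease PLAU, at 0.26 (edgeR FDR 0.393), were not called. Nor were ADAMTS3, the protease that cuts VEGFC with CCBE1, and the convertase PCSK7, both lower at −0.39 and −0.18 (edgeR FDR 0.0986 and 0.338). ADAMTS3 had 17.9, 16.8 and 21.1 CPM with Apatinib and 26.3, 25.7 and 21.5 CPM in controls. If control replicate 1 or 2 was left out, or both were summed, 1 gene of the list was called, HSPG2, and leaving out Apatinib replicate 1 ended the call of CTSD, as did the GC correction. The call of CCBE1 was also lost by limma on FPKM, at either pseudocount.

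Class 3 semaphorins bind neuropilins and signal through plexins. Of 13 such genes with the adaptor GIPC1, 10 were tested, 1 rose and 1 fell (median log2 fold change 0.16), or 20% called beside 11.5% of all tested genes. SEMA3B had 33.8, 35.3 and 34.2 CPM with Apatinib and 17.4, 16.6 and 19.8 CPM in controls. It rose by 0.94 on the log2 scale (edgeR FDR 0.0036) and was called in all 15 alternatives. The receptor PLXNA4 had 7.04, 4.91 and 4.41 CPM with Apatinib and 12.9, 13.1 and 13.0 CPM in controls, and fell by 1.26 on the log2 scale (edgeR FDR 0.0053). Its call was lost by limma on FPKM at either pseudocount, and its smallest log2 fold change over the alternatives was −0.42. The most abundant genes of the list by FPKM were not called, with log2 fold changes of 0.24 for GIPC1, 0.37 for the receptor PLXND1 and −0.54 for SEMA3C (edgeR FDR 0.275, 0.0903 and 0.0573). SEMA3C was called in 5 of 15 alternatives, including the fit without control replicate 3, where 4 genes of the list were called.

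Downstream of the receptors, 19 of 21 signal relay genes were tested, 1 rose and 1 fell, with a median log2 fold change of 0.071. The share called was 10.5%, near the 11.5% of all tested genes. The kinase FYN rose by 0.81 on the log2 scale (edgeR FDR 0.0170). PIK3R1, the regulatory subunit of PI3K, fell by 0.59 (edgeR FDR 0.0286), a call lost after the GC correction. Neither gene was called by limma on FPKM. The adaptor SHC1 stood at 0.44 (edgeR FDR 0.0444), under the fold change limit. The heat shock protein HSPB1 and the focal adhesion protein PXN had 0.025 and 0.080 (edgeR FDR 0.951 and 0.677). The count on this list was 1 without Apatinib replicate 1, 4 without Apatinib replicate 3, 0 without control replicate 1 or 2, and 5 without control replicate 3.

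Oxygen sensing controls VEGFA transcription through the hypoxia-inducible factors. All 9 genes of that list were tested, 0 rose and 1 fell (median log2 fold change 0.049), a share of 11.1% beside 11.5% of all tested genes. EGLN3, a prolyl hydroxylase that marks these factors for breakdown, fell by 0.52 (edgeR FDR 0.0223). It lost the call without any 1 of Apatinib replicates 1 and 2 and control replicates 1, 2 and 3, and by limma on FPKM. The factors HIF1A and EPAS1 had log2 fold changes of −0.18 and 0.38 (edgeR FDR 0.592 and 0.0580), and the co-regulator CITED2 had 0.15 (edgeR FDR 0.454). The direction of HIF1A was not stable, as its log2 fold change ran from −0.37 to 0.21 over the alternatives.

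Among 14 other angiogenic factors and inhibitors, 13 were tested, 3 rose and 1 fell, with a median log2 fold change of 0.13. That is 30.8% called, beside 11.5% of all tested genes. The growth factor FGF1 rose by 1.38 on the log2 scale (edgeR FDR 0.0091), from 1.35 ± 0.084 to 3.52 ± 0.60 CPM (SD, n = 3). TYMP, a thymidine phosphorylase with angiogenic activity, rose by 0.82 (edgeR FDR 0.0144). COL18A1, the collagen from which endostatin is released, rose by 0.61 (edgeR FDR 0.0145), a call lost after the GC correction. ANGPTL4 fell by 1.04 (edgeR FDR 0.0313). TIMP3, an inhibitor of matrix proteases and the most abundant of the list by FPKM, stood at 0.12 on the log2 scale (edgeR FDR 0.544). Leaving out control replicate 1 left 1 call, FGF1, and leaving out control replicate 2 left 0. By limma on FPKM the calls of FGF1, TYMP and ANGPTL4 were lost, and the smallest log2 fold changes over the alternatives were 0.49, 0.56 and −0.45. The call of ANGPTL4 was also lost without Apatinib replicate 1, Apatinib replicate 3 or control replicate 3.

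**Figure D5:**
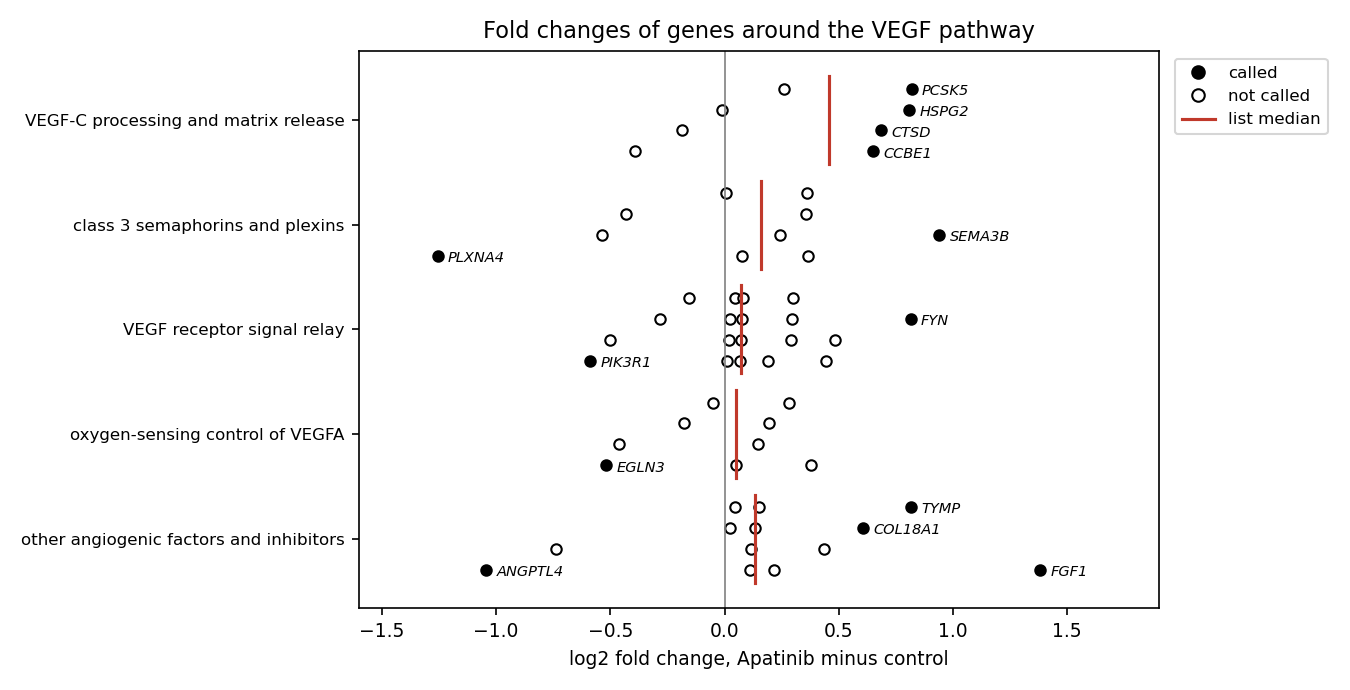
Log2 fold change of the tested genes on 5 lists around the VEGF pathway, Apatinib minus control, with filled and named points where a gene was called and a red line at each list's median. The median is 0.46 for VEGF-C processing and matrix release and between 0.049 and 0.16 for the other lists.

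Markers were examined because KDR and FLT4 are mostly endothelial genes. Of 12 endothelial markers 11 were matched by symbol, and EMCN had 0 counts in all libraries and ERG at most 2. CLDN5 was also too low for testing, with means of 0.21 ± 0.12 CPM with Apatinib and 0.61 ± 0.076 CPM in controls (SD, n = 3). Of 8 tested, 1 rose and 1 fell, or 25% called beside 11.5% of all tested genes. The summed level of the list was 77.5, 59.4 and 60.5 CPM with Apatinib and 56.2, 55.2 and 62.5 CPM in controls. EGFL7 was the most abundant by FPKM and stood at 0.43 on the log2 scale (edgeR FDR 0.154), and the receptors TIE1 and TEK had −0.01 and 0.13 (edgeR FDR 0.961 and 0.640). VWF rose by 1.52 from 9, 12 and 27 counts in controls to 49, 22 and 53 counts (edgeR FDR 0.0386). CDH5 fell by 1.22 from 41, 32 and 56 counts to 17, 15 and 18 (edgeR FDR 0.0242). Both calls were lost when Apatinib replicate 1, control replicate 1 or control replicate 2 was left out. That of VWF was also lost without Apatinib replicate 3 and after the GC correction, and that of CDH5 without control replicate 3. All libraries come from the line SW872, so these values do not measure a share of endothelial cells. In bulk RNA, fewer cells that express a gene and less of its RNA per cell cannot be told apart.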

How the data were processed

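RNA sequencing of SW872 cells was analysed in 6 samples, grouped by their labels. The authors deposited whole-number counts per gene, not normalized, and FPKM values for each sample. The submitters' processing notes name CASAVA, STAR 2.7.1a and build hg19. The counting program, its use of strand and the annotation are not given in the sources used here. In the FPKM data, 1 extra column, headed with a control label in the values of Apatinib replicate 1, was not used.

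Counts were filtered with filterByExpr, scaled by TMM (factors 0.952 to 1.03) and tested with the quasi-likelihood F test of edgeR 4.0.16 in R 4.3.3, with Benjamini-Hochberg adjustment over 16290 genes. DEGs were called at a fold change of more than 0.5 on the log2 scale, in either direction, with an FDR below 0.05. CPM values use TMM-scaled totals of the tested genes. SE values come from the fold change and its F statistic, and 95% intervals from the moderated degrees of freedom. The test was checked on simulated counts.

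Members and lists were chosen with earlier results of these data known. Genes named are all members, each called gene of a list and its 3 most abundant by mean FPKM, and the 3 genes closest in pattern to a called member. EMCN, ERG, CEBPA, FABP4 and ADIPOQ were named after their low counts were seen. ADAMTS3 and PCSK7 were named after their values were seen, so that the list of VEGFC processing is given in full. CLDN5 was also named after its counts were seen, so that each matched but untested endothelial marker is given. COL1A1 and THY1 were named after their values were seen, so that the mesenchymal list is given in full.

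Alternatives were DESeq2 1.42.0, RLE factors, no filter except a total of 1, a minimum of 10 counts per sample, a block for replicate number, controls 1 and 2 summed, each library left out, an FDR limit alone, and limma 3.58.1 on the log2 scale of FPKM plus 1 or plus 0.1, for genes averaging over 0.5 FPKM. Ligand shares were also taken from CPM. A correction for GC content (loess, span 0.3, for the 97.1% of tested genes with a GC value from GENCODE 29) was added after seeing the data.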

Additional observations from a re-analysis of the deposited data

How the results depend on the processing

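The number of DEGs was 1866, and 292 with controls 1 and 2 summed, 796 and 810 by limma on log2(FPKM + 1) and log2(FPKM + 0.1), and 275 to 2594 with each library left out. The number of members called was 1, and 2 by DESeq2, 3 with no filter, 2 with the FDR limit alone, 0 with controls 1 and 2 summed, 0 by limma at either pseudocount, and 0 to 2 with each library left out. The cause of these changes was not tested.

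Replicate numbers did not pair the samples. The correlations of deviations from the group means were −0.26, 0.081 and −0.22 for numbers 1, 2 and 3, and 0 of 6 samples correlated best with their own number. With the replicate number as a block, 2215 genes and 2 members were called, VEGFA (log2 fold change 0.64) and NRP2.

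The log2 fold change of VEGFA was 0.79 and called with no filter, and 0.24 to 1.00 with each library left out. VEGFB was called by DESeq2 (0.51) and with no filter (0.52), and had 0.30 to 0.68 with each library left out. NRP2 was not called with summed controls (0.70) or by limma (0.41 and 0.50), and had 0.52 to 0.90 with each library left out. PGF turned to −0.020 after the GC correction. VEGFC, FLT1 and NRP1 kept their direction and their side of the criteria in all 15 alternatives.

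Of the lists, summed controls left 1 call in VEGF-C processing, 1 among other angiogenic factors and 0 in signal relay, oxygen sensing, endothelial and adipocyte markers. By limma, at either pseudocount, 1 call was made among semaphorins and plexins, 1 among other angiogenic factors and 0 in signal relay, oxygen sensing and the endothelial, mesenchymal and adipocyte markers, where VWF and CDH5 were too low in FPKM to enter. The GC correction gave 1 call in signal relay, 1 among endothelial and 2 among mesenchymal markers, and a minimum of 10 counts gave 1 among endothelial markers, as VWF was removed. With each library left out, calls ran from 1 to 4 in VEGF-C processing, 2 to 4 among semaphorins and plexins, 0 to 5 in signal relay, 0 to 1 in oxygen sensing, 0 to 6 among other angiogenic factors, 0 to 2 among endothelial, 0 to 2 among mesenchymal and 0 to 1 among adipocyte markers. The difference in ligand share ran from −2.11 (without Apatinib replicate 2) to 12.7 percentage points for VEGFA and from −8.64 to 4.68 for VEGFB, which was 0.40 without control replicate 3.

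With 4 to 11 counts of KDR and 1 to 6 of FLT4 per library, depth limits both receptors. With no filter their log2 fold changes were 0.11 and −0.45 (edgeR FDR 0.95 and 0.864).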

Other observations

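Mesenchymal markers were measured in full in these cells. All 6 were tested, 1 rose and 0 fell (16.7% called, beside 11.5% of all tested genes), the median being 0.43 on the log2 scale. Their summed level was 1206, 964 and 1103 CPM with Apatinib and 861, 889 and 958 CPM in controls. Most of that was VIM alone, at 1081, 857 and 1001 CPM against 776, 801 and 861 CPM. COL3A1, a fibrillar collagen, had 8.67, 11.9 and 7.56 CPM with Apatinib and 3.58, 4.67 and 4.12 CPM in controls, and rose by 1.18 on the log2 scale (edgeR FDR 0.0095), a call lost without control replicate 1 and by limma on FPKM. The filament protein VIM, the most abundant of the list by FPKM, stood at 0.27 (edgeR FDR 0.177). COL1A2 had 0.46 (edgeR FDR 0.0394), under the fold change limit, and S100A4 had 0.54 (edgeR FDR 0.0876). THY1 had 0.40 (edgeR FDR 0.279). COL1A1 went the other way, at −0.083 (edgeR FDR 0.740), with means of 36.8 CPM with Apatinib and 39.0 CPM in controls.

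Of 7 adipocyte markers 3 were tested and 1 was called (33.3%, beside 11.5% of all tested genes), and CEBPA, FABP4 and ADIPOQ had 0 counts in all 6 libraries. LPL, the lipoprotein lipase, had 14.3, 23.5 and 17.1 CPM with Apatinib and 11.3, 10.9 and 8.57 CPM in controls, and rose by 0.84 on the log2 scale (edgeR FDR 0.0237). The call was lost without control replicate 1 or control replicate 2 and by limma on FPKM. PPARG, the regulator of fat cell differentiation, stood at 0.11 on that scale (edgeR FDR 0.597), and the lipid droplet protein PLIN1 had 0.60 (edgeR FDR 0.225). The summed level of the list was 65.6, 89.4 and 69.7 CPM with Apatinib and 63.0, 62.0 and 61.4 CPM in controls.

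The counts and the FPKM values did not always rank the libraries alike. For FLT1, control replicate 1 was the lowest of the controls in CPM (28.8) and the highest in FPKM (5.81). CEBPA had 0 counts in every library but a mean of 0.107 FPKM in controls.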
